A study of Mus musculus with 17 samples.

Results

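Plasma cells are the end stage of the B cell lineage: a B cell that has met antigen, often after passing through a germinal center, turns into a cell that makes and secretes antibody. The change is run by a small set of transcription factors, among them IRF4, Blimp-1 (encoded by Prdm1) and XBP1, and it brings a large endoplasmic reticulum (ER), high glycosylation and export of protein, and the surface proteins that hold the cell in the bone marrow. Distal open regions, which lie away from promoters, often hold the enhancers that such factors bind. The regions described here are distal regions that were open in plasma cells of the bone marrow (BMPC) and far less open in naive (nB) and germinal center (GCB) B cells.

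Accessibility came from ATAC-seq, in which a transposase inserts sequencing adapters into open chromatin. Each value is a read count in a region, scaled to the same total of reads over all regions for every library and given per 1e+06 such reads (RPPM). The mice were on a B6;129S4 background and carried loxP-flanked forms of Dnmt3a and Dnmt3b, the de novo DNA methyltransferase genes. The labels name the alleles Dnmt3atm3.1Enl and Dnmt3btm5.1Enl, whereas the study's methods give another allele number, Dnmt3atm3.2Enl, for Dnmt3a. Mice of both groups were Dnmt3afl/fl Dnmt3bfl/fl. The Dnmt3-sufficient group (C) carried no Cre, and the Dnmt3-deficient group (KO) carried 1 allele that expresses Cre in cells of the B lineage, so that deletion was directed to that lineage. nB (B220+ Fas- GL7-) came from lymph nodes of unimmunized male mice, with 3 C and 2 KO libraries of 1 mouse each. GCB (B220+ Fas+ GL7+ PE+) came from lymph nodes 30 days after immunization with phycoerythrin (PE) in complete Freund adjuvant, with 2 C and 4 KO libraries, each from 2 pooled mice and from both sexes by library (1 male and 1 female in C, 1 male and 3 female in KO). BMPC (CD138+) came from bone marrow of female mice 30 days after PE immunization, with 3 C and 2 KO libraries of 1 mouse each. By the ages in the study's methods the mice were young adults at the start. Cell type, tissue, immunization and, for nB against BMPC, sex therefore changed together and cannot be told apart.

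The members were chosen by measured values in the C libraries. A region was kept if it had no promoter annotation, lay outside chrX, chrY and chrM, had a mean of at least 5 RPPM in the 3 C BMPC libraries, and had a BMPC mean of at least 4 times both the C nB mean and the C GCB mean. The rule kept 1856 of 50633 distal regions and of 66177 regions in all. Applied with the cell types exchanged, it kept 982 distal regions open only in nB and 1691 open only in GCB. Differences among the C libraries are therefore given as a description, and tests are made on the KO libraries, which the rule did not use.

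Depth, as reads in regions, was 4104875 to 6079018 per nB library, 907959 to 2280954 per GCB library and 5357687 to 8232313 per BMPC library. A count of 3 reads, taken as the floor, stood for 0.364 to 0.560 RPPM in BMPC, 0.494 to 0.731 RPPM in nB and 1.32 to 3.30 RPPM in GCB. The cell types were checked against marker genes at promoter regions in the C libraries. Tnfrsf17, which encodes the plasma cell survival receptor BCMA, averaged 0.392 RPPM in nB, 1.35 RPPM in GCB and 19.995 RPPM in BMPC, and Pax5, the B cell identity factor, averaged 40.3, 24.3 and 2.84 RPPM. Gcsam, a germinal center B cell gene, averaged 0.580, 20.95 and 5.49 RPPM in the same order, whereas the promoters of the germinal center markers Fas and S1pr2 were highest in BMPC and that of Bcl6 was highest in nB. The promoters of Prdm1 and Xbp1 were open in all 3 cell types, Prdm1 at 44.5, 31.2 and 65.6 RPPM and Xbp1 at 60.8, 40.6 and 75.5 RPPM. The Irf4 promoter, also open in all 3, was highest in nB, at 57.4, 41.1 and 44.1 RPPM. In these bulk samples, fewer cells with an open region and less accessibility per cell cannot be told apart.

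The central 200 bases of 8 members are shown because these are among the highest members of genes for plasma cell transcription factors, surface receptors and ER proteins. They are read on the plus strand of NCBIM37 (mm9). Capitals mark letters searched for on both strands: the E-box forms CAGCTG and CACCTG, which E proteins such as E2A bind, the IRF forms GAAAC and GAAANNGAA, the ETS and ETS-IRF forms GGAAGT and GGAANNGAA, the octamer ATGCAAAT, the MEF2 form CTATTTATA and the unfolded protein response element TGACGTG. The forms can overlap, and a match is a description of the letters, not of a bound site.
Edem3, chr1:153648679-153648878: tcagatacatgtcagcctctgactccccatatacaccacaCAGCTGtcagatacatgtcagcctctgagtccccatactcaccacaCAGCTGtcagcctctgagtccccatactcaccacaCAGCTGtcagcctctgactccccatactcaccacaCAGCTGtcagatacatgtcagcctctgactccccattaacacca
Lag3, chr6:124850642-124850841: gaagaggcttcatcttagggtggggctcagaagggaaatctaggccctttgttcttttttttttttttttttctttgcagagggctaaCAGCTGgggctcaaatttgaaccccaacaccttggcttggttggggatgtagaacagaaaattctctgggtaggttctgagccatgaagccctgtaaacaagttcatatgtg
Ell2, chr13:75871765-75871964: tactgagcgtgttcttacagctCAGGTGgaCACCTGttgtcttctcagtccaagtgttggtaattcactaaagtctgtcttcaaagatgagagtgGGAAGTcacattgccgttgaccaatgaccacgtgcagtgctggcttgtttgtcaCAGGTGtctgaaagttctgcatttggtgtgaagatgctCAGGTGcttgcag
Sdc1, chr12:8836253-8836452: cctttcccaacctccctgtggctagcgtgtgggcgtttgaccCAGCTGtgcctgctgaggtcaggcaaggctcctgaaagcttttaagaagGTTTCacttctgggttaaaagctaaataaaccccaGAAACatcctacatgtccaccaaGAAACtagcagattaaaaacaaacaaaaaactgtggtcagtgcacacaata
Xbp1, chr11:5426640-5426839: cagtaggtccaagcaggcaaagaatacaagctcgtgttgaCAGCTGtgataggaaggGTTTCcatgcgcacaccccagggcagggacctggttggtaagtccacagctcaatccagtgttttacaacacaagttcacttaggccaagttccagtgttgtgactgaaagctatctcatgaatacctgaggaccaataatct
Mef2c, chr13:83203981-83204180: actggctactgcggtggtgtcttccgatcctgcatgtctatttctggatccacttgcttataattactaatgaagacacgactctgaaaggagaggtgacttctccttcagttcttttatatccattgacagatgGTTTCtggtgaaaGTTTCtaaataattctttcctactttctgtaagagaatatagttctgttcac
Mef2d, chr3:87931780-87931979: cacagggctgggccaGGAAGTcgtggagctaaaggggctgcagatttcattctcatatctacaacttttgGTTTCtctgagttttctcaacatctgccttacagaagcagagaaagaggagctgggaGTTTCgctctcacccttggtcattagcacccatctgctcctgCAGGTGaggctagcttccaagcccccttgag
Il6st, chr13:113215100-113215299: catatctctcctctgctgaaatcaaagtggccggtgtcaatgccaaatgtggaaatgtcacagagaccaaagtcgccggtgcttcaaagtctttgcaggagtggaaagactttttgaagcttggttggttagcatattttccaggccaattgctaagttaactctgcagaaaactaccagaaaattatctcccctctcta

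The Edem3 region was the widest member, at 3031 bp, and lay in an intron of Edem3, which encodes an ER mannosidase-like protein that marks misfolded glycoproteins for degradation. Its sequence held 67 CAGCTG matches, and 36 of the 66 spacings between neighboring matches were 35 bases. The window shown has 4 of them in a repeated unit and no CpG. How reads were placed among such repeats was not tested. The Ell2 window held 4 CACCTG matches and 1 GGAAGT. The Sdc1 and Xbp1 windows each paired 1 CAGCTG with GAAAC, at 3 places in Sdc1 and 1 in Xbp1. The Il6st window had none of the forms.

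Across all members, E-box and IRF letters were frequent and ETS letters were rare. CAGCTG was in the central 200 bases of 482 of 1856 members (26.0%), against 15.7% of all distal regions, 12.4% of nB-only regions and 16.1% of GCB-only regions. CACCTG was in 37.6% of members, against 20.8%, 13.4% and 20.9% of the same sets. Either E-box was in 985 members (53.1%), against 32.7% of all distal regions. GAAAC, the IRF core, was in 64.98% of members, 46.9% of all distal regions, 48.6% of nB-only regions and 35.4% of GCB-only regions. The tandem IRF form GAAANNGAA, which Blimp-1 and IRF dimers can bind, was in 16.5% of members and 10.4% of all distal regions. The ETS core GGAAGT ran the other way, with 13.9% of members, 24.3% of all distal regions and 41.5% of nB-only regions. In GCB-only regions it was also below all distal regions, at 19.7%. The ETS-IRF form GGAANNGAA was in 6.95% of members, 9.27% of all distal, 12.7% of nB-only and 7.01% of GCB-only regions. The octamer was in 3.45% of members, near the 3.44% of all distal regions and below the 11.2% of GCB-only regions. The unfolded protein response element TGACGTG, bound by XBP1 and ATF6, was in 1.24% of members and 0.986% of all distal regions. Its share was 1.26% in GCB-only regions, near that of members, and 0.713% in nB-only regions.

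Mean GC in the window was 47.1% (SD 6.53) in members and 48.4% (SD 7.59) in all distal regions, and the mean number of CpGs was 2.66 and 3.49. When distal regions were split into 3 classes of GC, CAGCTG was in 13.6%, 26.9% and 40.4% of members in the low, middle and high class, against 8.99%, 15.6% and 21.7% of all distal regions, so the share was higher in members in each class. GGAAGT was lower in members in each class, at 12.2%, 14.98% and 14.9% against 23.9%, 25.8% and 23.2%. The same letters could be read in regions that passed the rule with KO means but not with C means. With KO means in place of C means the rule kept 1889 regions. The 657 of them that were not members held CAGCTG in 26.9%, GAAAC in 61.8% and GGAAGT in 16.9%. All distal regions held these in 15.7%, 46.9% and 24.3%. C values had a part in setting these 657 apart. The plot of matches by position shows where the letters lay in 1000 bases around the region centre, of which the outer bins are flanking sequence for most members. CAGCTG was in 9.75% of members in the 50 bases just before the region centre and in 3.18% in the bin centred 475 bases before it, while GGAAGT was nearly level from the flanks to the centre in members.

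**Figure D1:**
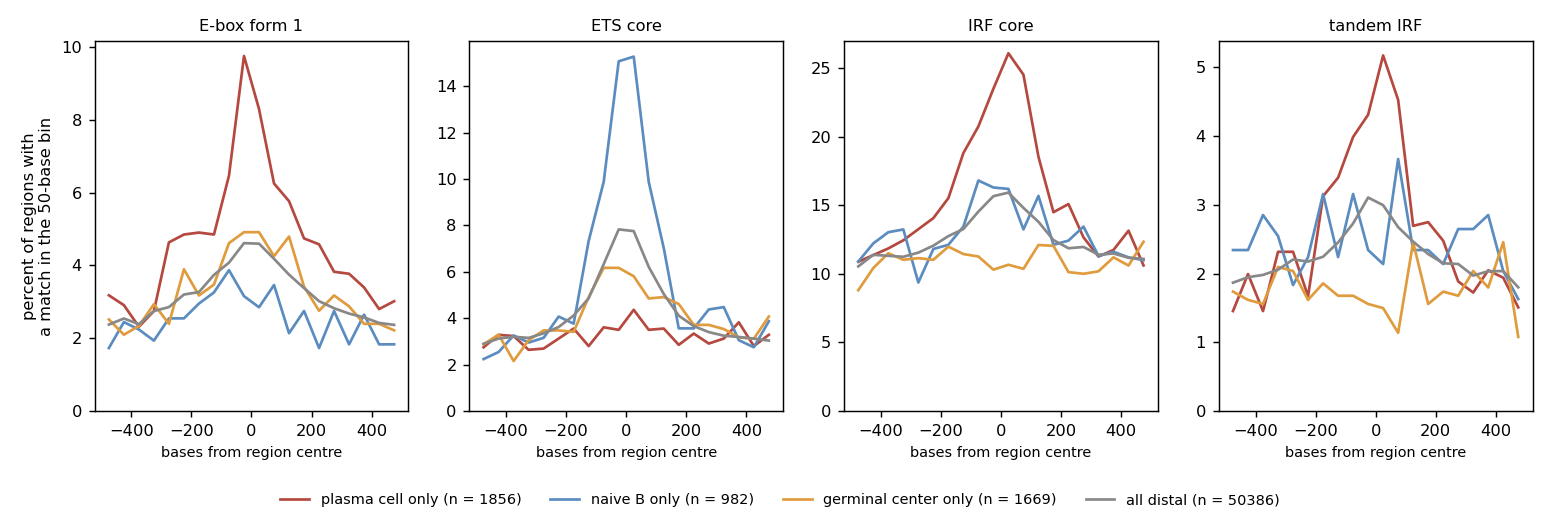
Percent of regions with a match (vertical axis) in bins of 50 bases by distance from the region centre (horizontal axis, bases), for members (red), nB-only regions (blue), GCB-only regions (orange) and all distal regions (grey). E-box form 1 is CAGCTG. The member line peaks at the centre for the E-box and both IRF forms, to 26.1% for the IRF core, and has no peak for the ETS core, where the nB-only line does.

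The letters were also set beside the size of the opening, which was read in KO. The median log2 difference between BMPC and nB was 3.00 in members with CAGCTG and 2.91 in members without it. It was 2.97 and 2.85 with and without GAAAC, and 3.01 and 2.88 with and without CACCTG. For GAAANNGAA it was level, at 2.926 and 2.925, and for GGAAGT it was 2.88 and 2.93. Against GCB the medians with and without were 2.11 and 2.098 for CAGCTG, 2.16 and 2.08 for CACCTG and 2.13 and 2.05 for GAAAC. They were 2.07 and 2.11 for GAAANNGAA and 2.102 both ways for GGAAGT. These gaps were not tested.

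Members were wider than other distal regions, with a median of 672 bp (range 164 to 3031 bp) against 467 bp. The median was 523.5 bp in nB-only and 410 bp in GCB-only regions, which had to pass the same level limit. RPPM is a sum over the region, and an effect of the level limit on width was not tested. Of the members, 1143 (61.6%) overlapped an intron, 240 (12.9%) an exon and 63 (3.39%) a 3′ UTR, and 674 (36.3%) lay outside all of these. Introns were met less often by all distal regions (53.2%) and by nB-only regions (46.3%). The median distance to the nearest transcription start was 16609 bp in members, 17742 bp in all distal regions, 29915 bp in nB-only regions and 23801 bp in GCB-only regions. Members lay near 1184 different genes by nearest start. Chromosome 15 had the highest share of its distal regions among the members, at 116 of 2161 (5.37%), and chromosome 17 the lowest, at 2.91%.

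Members often stood beside each other. Of 1856 members, 721 (38.8%) had another member within 20 kb, and these formed 288 groups, 93 of them with 3 or more members. The shares were 35.6% of nB-only and 28.3% of GCB-only regions, which are sets of other sizes. The longest run held 8 members in 41.4 kb of Galnt2 (chr8:126789538-126830895). Galnt2 encodes an enzyme that starts O-linked glycan chains, and the means of these 8 members ran from 12.6 to 54.3 RPPM in C BMPC and from 12.3 to 58.4 RPPM in KO BMPC. A run of 7 members in 45.5 kb (chr13:30770594-30816116) was annotated to Dusp22, a phosphatase gene, and Irf4 by nearest transcript or start. Its C BMPC means were 13.9 to 46.8 RPPM. St6gal1, whose enzyme adds terminal sialic acid to glycans, had a run of 7 members in 52.6 kb (chr16:23294751-23347374).

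The genes with most members, by transcript or nearest start, were Nsmce2 (10 members), Dusp22 (9), Galnt2 (9), Arfip1 (8), Atg5 (8), Fndc3b (8), Trib1 (8), Fam46c (7), Prdm1 (7) and St6gal1 (7). Nsmce2 and Trib1 are neighbors and share members. Nsmce2 encodes a SUMO ligase of a chromosome repair complex, Trib1 a pseudokinase, and Fam46c an RNA nucleotidyltransferase. Fndc3b, a fibronectin-domain gene, had the highest single member of these 10 genes, with a C BMPC mean of 79.6 RPPM. In the KO libraries all 10 members of Nsmce2, all 9 of Dusp22, all 9 of Galnt2, all 8 of Atg5 and all 8 of Trib1 were called higher in BMPC than in both other cell types, as were 7 of 8 at Arfip1, 7 of 8 at Fndc3b, 6 of 7 at Prdm1, 5 of 7 at Fam46c and 5 of 7 at St6gal1 (limma, adjusted p at most 0.01 and at least 2-fold, as in 6.7% of all regions).

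The stretch of chromosome 10 that holds Prdm1 and the autophagy gene Atg5 had 15 members among 53 distal regions. The 8 nearest to Atg5 lay between 44018830 and 44098105, 6 more lay within or past the end of Prdm1 between 44119880 and 44171391, and 1 lay on the other side of Prdm1 at chr10:44450404-44451060. The highest was in Atg5 at chr10:44041187-44042321, with 55.9 ± 4.598 RPPM in C BMPC (SD, n = 3) and 60.6 ± 3.32 RPPM in KO BMPC (n = 2). The same region had 1.40 ± 0.810 RPPM in KO nB (n = 2) and 4.63 ± 3.53 RPPM in KO GCB (n = 4). The highest of the 6 near the Prdm1 end, chr10:44119880-44121233, had 44.0 ± 1.12 RPPM in C BMPC and 43.6 ± 6.43 RPPM in KO BMPC, against 1.05 ± 0.374 RPPM in KO nB and 8.46 ± 3.97 RPPM in KO GCB. In KO each of the 15 had a BMPC mean above its nB and GCB means, which in C the rule required.

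**Figure D2:**
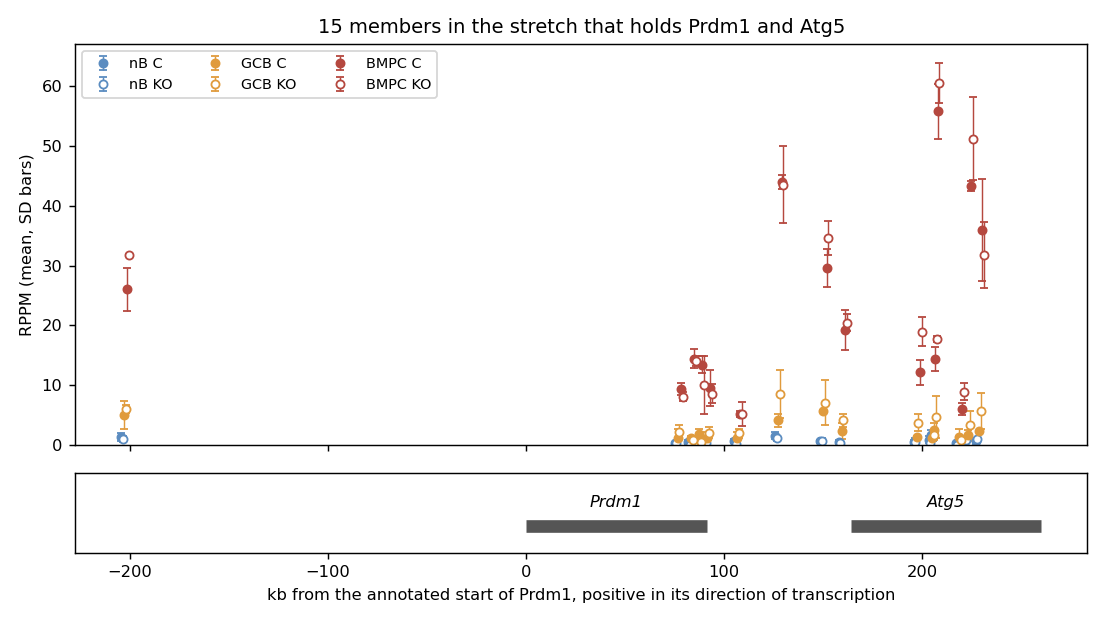
Accessibility in RPPM (vertical axis, mean with SD bars) of the 15 members around Prdm1 and Atg5 by distance from the annotated start of Prdm1 (horizontal axis, kb); filled circles are C, open circles KO, and the bars below give the extent of the 2 genes. Plasma cell means run from 5.14 to 55.9 RPPM in C and from 5.15 to 60.6 RPPM in KO, while every nB mean is at or under 1.65 RPPM.

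The members took from 3.39% to 3.64% of all reads in regions in C BMPC libraries, and from 3.51% to 3.56% in the KO BMPC libraries, which had no part in the choice. They took 0.275% and 0.289% of the reads in KO nB, and from 0.535% to 0.692% in the 4 KO GCB libraries. The median member had 14.5 and 14.6 RPPM in the 2 KO BMPC libraries and 0.658 and 0.787 RPPM in the 2 KO nB libraries. In KO GCB it had 3.30, 3.18, 2.19 and 2.80 RPPM. The groups did not overlap in these medians, and KO BMPC was higher than all other KO libraries. No member was at or under 3 reads in any BMPC library, whereas 789 and 825 members were in the 2 KO nB libraries and from 653 to 1154 in the KO GCB libraries. A total of 133 members were at or under 3 reads in every KO nB and KO GCB library.

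**Figure D3:**
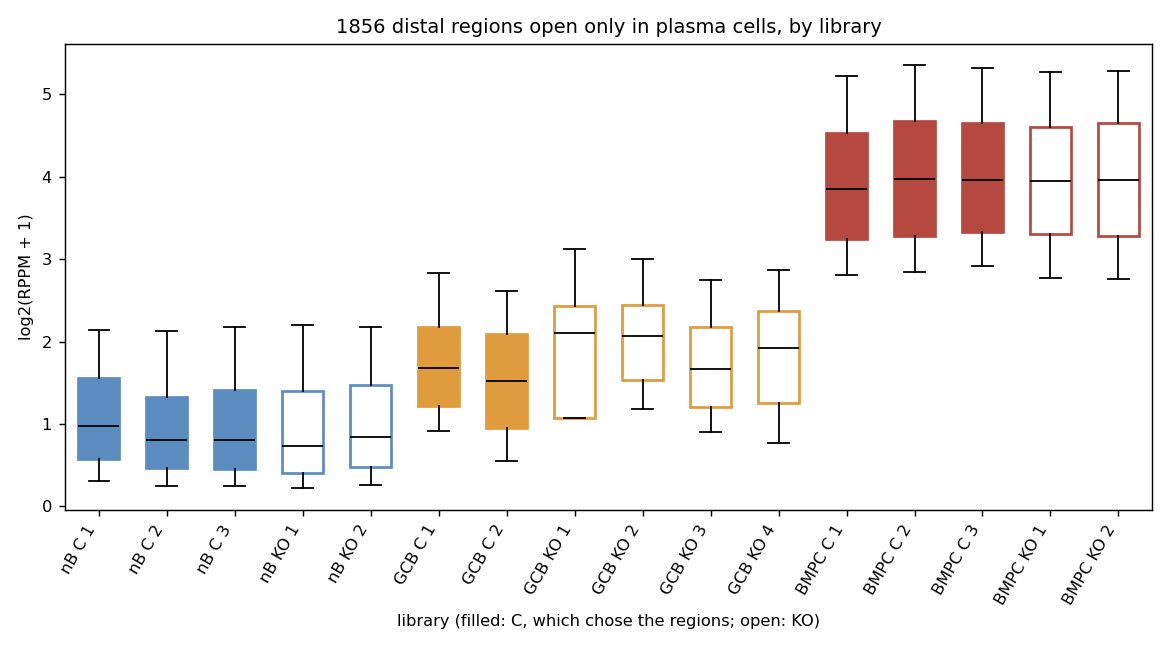
Accessibility of the 1856 members as log2(RPPM + 1) (vertical axis) in each of 16 libraries (horizontal axis); boxes show the median and quartiles, whiskers the 10th and 90th percentiles, filled boxes the C libraries that chose the members and open boxes the KO libraries. Both KO BMPC boxes lie at the level of the C BMPC boxes and above all nB and GCB boxes.

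To ask whether the regions were also plasma cell-specific in cells without Dnmt3a and Dnmt3b, limma was fitted to log2(RPPM + 1) of the 8 KO libraries over all 66177 regions, and a region was called at a Benjamini-Hochberg adjusted p of at most 0.01 and a 2-fold change. KO BMPC was higher than KO nB in 1774 members (95.6%), where 15.6% of all regions were called, and higher than KO GCB in 1597 (86.0%), where 10.5% were called. Both calls were made for 1572 members (84.7%), against 6.7% of all regions. The difference from nB was positive in 1856 of 1856 members and the difference from GCB in 1852, against 35518 and 32165 of all 66177 regions. The median log2 difference was 2.93 against nB and 2.102 against GCB, where the medians of all regions were 0.08 and -0.03. Both KO BMPC libraries were above all 6 other KO libraries in 1779 members, as they were in 20.8% of all regions. Leaving out KO BMPC replicate 2 lowered the count against GCB to 1025 and the count against both to 971, and leaving out replicate 1 lowered the latter to 1005.

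**Figure D4:**
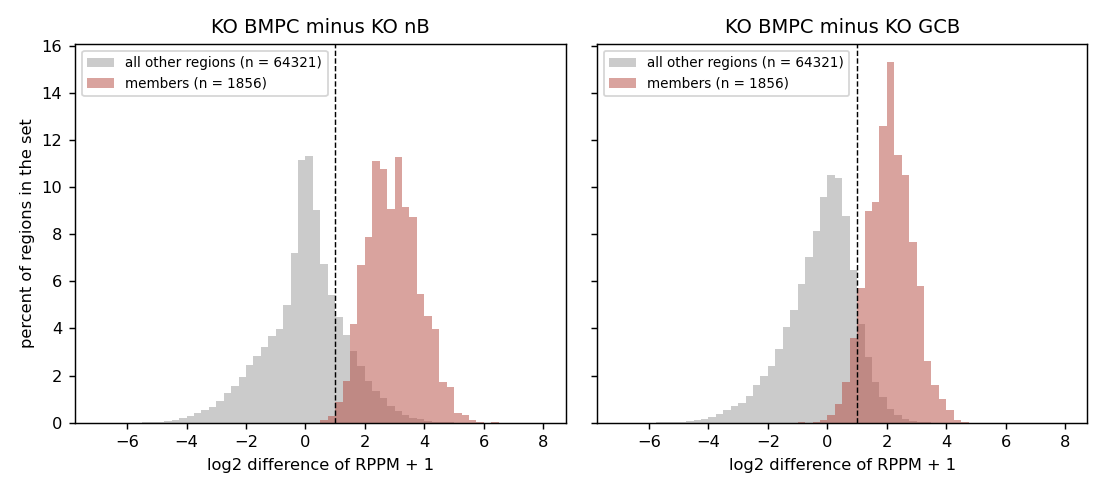
Histograms of the log2 difference in RPPM + 1 (horizontal axis) between KO BMPC and KO nB (left) and between KO BMPC and KO GCB (right), as percent of regions in each set (vertical axis), for the 1856 members (red) and all other regions (grey). The dashed line marks a 2-fold difference; the members have medians of 2.93 and 2.102.

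The size of the limit was met less often in KO than the direction. Of the members, 1780 (95.9%) had a KO BMPC mean of at least 4 times the KO nB mean, 1278 (68.9%) at least 4 times the KO GCB mean and 1249 (67.3%) both. At least 2 times both means was reached by 1776 members (95.7%). The KO BMPC mean of 113 members (6.09%) was under 5 RPPM. The 1232 regions kept with C and with KO means made up 66.4% of the C list and 65.2% of the KO list.

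The order of the medians was nB below GCB below BMPC. The GCB mean was the higher of the nB and GCB means in 1554 members (83.7%) in C and in 1694 (91.3%) in KO. The C count is a description, since the rule used these means. On the log2 scale of the KO fit, GCB was above nB in 1661 members and in 36606 of all 66177 regions. In the KO fit, GCB was higher than nB in 481 members (25.9%), where 15.6% of all regions were called, and lower in 7, where 6.63% were called. This comparison was added after the data were seen, and the GCB libraries were the shallowest. Its count ranged from 55 with a pseudocount of 5 to 746 with edgeR's quasi-likelihood test. Leaving out KO nB replicate 1 or 2 gave 169 or 195, and leaving out KO BMPC replicate 2 gave 318. The highest such member among those named was near Mir148a, a microRNA gene, at chr6:51237124-51238787, with 0.494 and 0.197 RPPM in KO nB, 27.5, 19.7, 23.2 and 18.2 RPPM in KO GCB and 113 and 117 RPPM in KO BMPC. In this region the 3 cell types did not overlap, and GCB was higher than nB by 4.10 on the log2 scale (limma, adjusted p = 1.4e-10). The Sdc1 member was lower in GCB than in nB, with a log2 difference of -1.38 (limma, adjusted p = 0.00024) and 14.6 and 13.4 RPPM in KO nB and 2.80 to 5.73 RPPM in KO GCB.

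Among transcription factor genes of the plasma cell program, 14 of 23 listed had 34 members, or 8.19% of their 415 distal regions, where members were 3.67% of all distal regions. Of these 34, 32 were called higher in KO BMPC than in both KO nB and KO GCB, and the median log2 difference was 3.20 against nB and 2.34 against GCB. Over all members 84.7% were called in both, and over all regions 6.7%. The counts called in KO for this and the following lists stand beside these shares, and no list was tested against them. Ell2 encodes an elongation factor that favors the secreted form of immunoglobulin mRNA. Its highest member (chr13:75871304-75872427, intron) had 76.2, 77.4 and 73.8 RPPM in C BMPC and 68.9 and 66.4 RPPM in KO BMPC. The same region had 1.48 and 1.38 RPPM in KO nB and 17.6, 10.8, 12.3 and 18.2 RPPM in KO GCB. KO BMPC was the highest group without overlap and exceeded nB by 4.82 (SE 0.27) and GCB by 2.16 (SE 0.24) on the log2 scale, with limma adjusted p = 3.0e-10 and 6.5e-07. The highest Xbp1 member lay 1953 bp from the start at chr11:5426196-5427284, with 52.0 and 44.6 RPPM in KO BMPC, 2.96 and 2.16 in KO nB and 3.95 to 6.99 in KO GCB. It had the same order and no overlap between BMPC and the others. Mef2c and Mef2d encode MADS-box factors that act in B cells. The Mef2d member (chr3:87931478-87932282) had 51.0 and 45.9 RPPM in KO BMPC and at most 1.18 RPPM in KO nB and 3.30 RPPM in KO GCB. The Mef2c member (chr13:83203730-83204433), far from the Mef2c start, was less specific, with 49.3 and 44.6 RPPM in KO BMPC, 10.9 and 8.07 in KO nB and 7.69 to 15.3 in KO GCB. Of the 6 E protein and Id factor genes, Tcf12 alone had members, 3 of the list's 108 distal regions (2.78%), and all 3 were called in KO.

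Unfolded protein response and ER folding genes had 17 members at 10 of 36 genes (10.9% of 156 distal regions), 16 of them called in KO, with median log2 differences of 3.17 and 2.29. In the Edem3 repeat region the values were 171, 149 and 165 RPPM in C BMPC, 136 and 144 in KO BMPC, 3.45 and 2.16 in KO nB and 12.7 to 25.5 in KO GCB. It exceeded nB by 5.23 (SE 0.27) and GCB by 2.92 (SE 0.24) on the log2 scale in KO (limma, adjusted p = 1.3e-10 and 1.4e-08). Edem2, of the same enzyme family, had 41.4 and 37.9 RPPM in KO BMPC at chr2:155548440-155549310 and from 0.590 to 3.30 RPPM in the other KO libraries. Ern1, which encodes the ER stress sensor IRE1 that splices Xbp1 mRNA, had a member in an intron (chr11:106340961-106341608) with 19.4 and 19.2 RPPM in KO BMPC and at most 5.59 RPPM in the other KO libraries. The Herpud1 member, of a gene in ER-associated degradation, had 26.1 and 19.8 RPPM in KO BMPC, 4.11 and 6.30 in KO nB and 1.40 to 4.41 in KO GCB.

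Genes of ER translocation and vesicle traffic had 8 members (5.88% of 136 distal regions), 7 of them called in KO. They lay at Sec11c, a signal peptidase subunit, Srprb, the β subunit of the signal recognition particle receptor, Copb1, Kdelr1 and Tram2. The Kdelr1 region (chr7:53132192-53132806), at the receptor gene that returns ER proteins from the Golgi, was at 0 reads in 2 of 4 KO GCB libraries and at 0.658 and 0.197 RPPM in KO nB, and had 24.8 and 29.1 RPPM in KO BMPC. Glycosylation enzyme genes had 29 members (9.24% of 314), 24 of them called in KO. At Man1c1, a mannosidase gene, the highest member had 55.03 and 54.3 RPPM in KO BMPC and 1.40 to 3.95 RPPM in the other KO libraries. The highest St6gal1 member (chr16:23341185-23342117) had 40.3, 50.9 and 43.3 RPPM in C BMPC and 29.4 and 31.5 RPPM in KO BMPC. The other KO libraries had 1.48 to 8.39 RPPM. Both KO BMPC libraries were below all C BMPC libraries there, as in 432 of the 1856 members, while both were above in 428. The share over all regions was not counted, so these counts are a description only. Genes of amino acid transport and synthesis had 3 members (3.0% of 100, near the share of all distal regions), 1 of them called in KO.

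Surface receptor genes of plasma cells had 23 members (11.7% of 196 distal regions), 21 of them called in KO. Sdc1 encodes CD138, the protein used to sort BMPC, and had no promoter region in the table. Its highest member (chr12:8835777-8836929), 47335 bp from the nearest start, had 67.9 and 64.2 RPPM in KO BMPC. The Lag3 member (chr6:124850013-124851471), at the gene of an inhibitory receptor, had 64.6 and 82.3 RPPM in KO BMPC, 4.94 and 5.51 in KO nB and 9.91 to 16.8 in KO GCB. Cd28, a costimulatory receptor of T cells that plasma cells also carry, had a member at chr1:60818170-60819089 with 36.8 RPPM in each KO BMPC library, 0.987 and 0.394 RPPM in KO nB and 11.01 to 17.2 RPPM in KO GCB. There GCB was above nB without overlap, by 3.16 on the log2 scale (limma, adjusted p = 2.1e-08), and BMPC was above GCB by 1.34 (SE 0.25, adjusted p = 0.00023). The Il6st member, of the signaling chain of the IL-6 receptor, had 47.5 and 44.0 RPPM in KO BMPC and 6.61 to 14.0 RPPM in the other KO libraries.

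**Figure D5:**
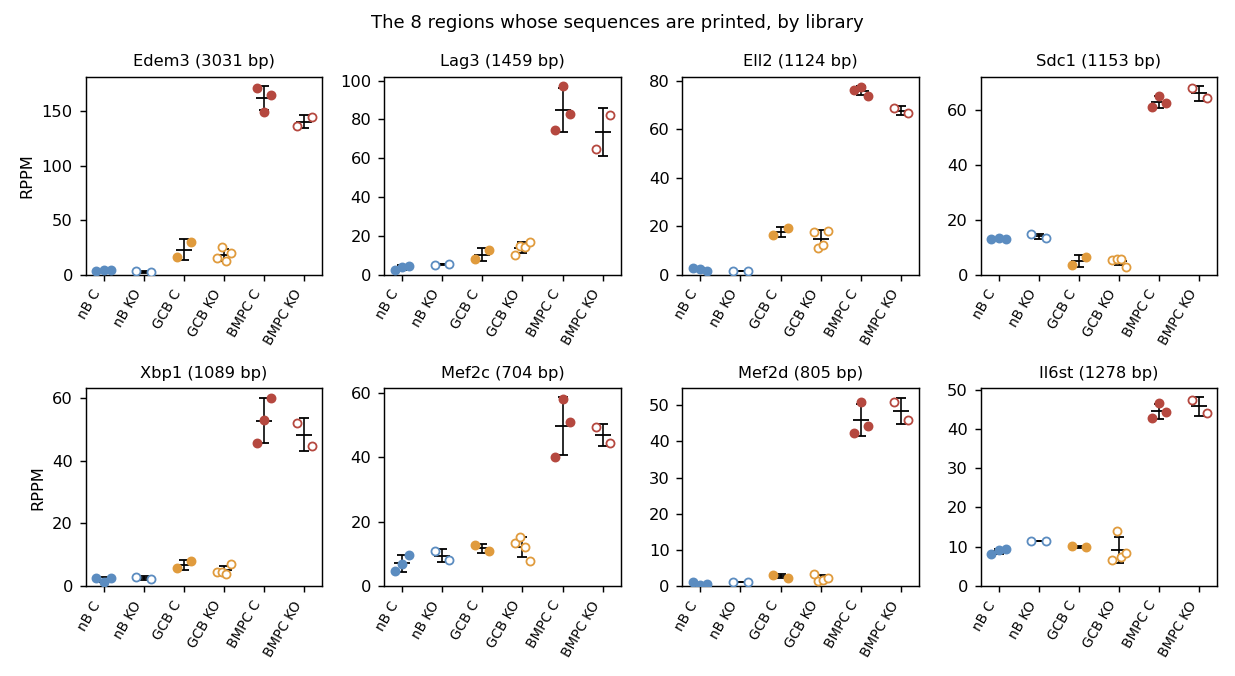
Accessibility in RPPM (vertical axes, each from 0) of the 8 members whose sequences are shown, by group (horizontal axes); points are libraries, filled for C and open for KO, with mean and SD bars, and the width of each region is in its title. In all 8 panels every BMPC library lies above every nB and GCB library, where the C means were set apart by the rule.

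Homing genes had 6 members (3.57% of 168, near the 3.67% of all distal regions). All 6 were called in KO, where 84.7% of all members were. The region nearest to Itga4 (chr2:78976864-78978673), which encodes the α4 integrin, had 93.9 and 92.0 RPPM in KO BMPC, 4.61 and 3.35 in KO nB and 8.39 to 13.2 in KO GCB. Cxcr4, the receptor that draws plasma cells to the marrow, had a member 61702 bp away with 40.3 and 37.7 RPPM in KO BMPC, 1.15 and 0.984 in KO nB and 3.50 to 10.8 in KO GCB. The S1pr1 member, at a receptor for exit from lymphoid tissue, had 26.9, 25.4 and 25.5 RPPM in C BMPC and 38.7 and 39.6 RPPM in KO BMPC. Survival and cell cycle genes had 7 members (4.52% of 155), all called in KO. In an intron of Bcl2 the value was 68.6 and 68.7 RPPM in KO BMPC and 6.29 to 12.7 RPPM in the other KO libraries. B cell identity genes had 3 members among 395 distal regions (0.759%), at Irf8, Ebf1 and Ets1, and no member lay at a naive B cell or germinal center marker gene of those lists.

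The 10 highest members in C BMPC included regions outside these lists. The first, 2824 bp from the start of Jun in an exon and 3′ UTR (chr4:94714487-94716088), had 159 and 158 RPPM in KO BMPC, 14.3 and 17.3 in KO nB and 9.91, 41.4, 33.8 and 55.2 in KO GCB, where the spread was wide. Jun encodes an AP-1 factor. Others lay near Trp53inp1, a p53-induced gene, Gabrr2, Nck2, Psmb9, an immunoproteasome subunit gene, and Ncoa2, with KO BMPC means from 85.3 to 119 RPPM. A member on chromosome 6 with no gene symbol (chr6:86497264-86498448) had 98.4 and 95.6 RPPM in KO BMPC and 1.65 to 7.01 RPPM in the other KO libraries. Per kb of region, the Jun member was also above the Edem3 member, at 98.8 and 46.3 RPPM per kb in KO BMPC.

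The members nearest the limits in C were as follows. The 3 just above the level limit, at March3, Sag and a region without symbol, had C BMPC means of 5.01, 5.01 and 5.02 RPPM, and the 3 just below it, at Wdfy2, Heatr6 and Grip2, had 4.99, 4.99 and 4.98 RPPM. Near the fold limit over nB, the Cdc5l region was inside with 12.6 RPPM in BMPC and 3.15 in nB, and the Fbxl20 region was outside with 29.1 and 7.27 RPPM. Near the fold limit over GCB, the Hipk2 region was inside with 7.10 RPPM in BMPC and 1.77 in GCB, and an Ebf1 region was outside with 10.0 and 2.50 RPPM.

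Promoters had no part in the rule, so the promoters of the genes nearest to members were read in the KO fit. There were 1346 promoter regions of 967 genes with at least 1 member, and 238 of them (17.7%) were higher in KO BMPC than in KO nB, against 10.4% of all 13878 promoter regions outside chrX, chrY and chrM. The share was 169 of 980 (17.2%) for genes with 1 member, 37 of 232 (15.9%) with 2 and 32 of 134 (23.9%) with 3 or more. For genes with none it was 9.58%. Lower promoters made up 3.19% at genes with members and 5.51% at genes with none. The median log2 difference was 0.16 for promoters of genes with members and 0.06 for those without. Promoter regions of 1 gene are not independent of each other.

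Dnmt3 deficiency was compared within each cell type in a limma fit of all 16 libraries. Since the C values chose the members, these results are a description. In BMPC no member was called higher or lower, where 0.0907% and 0.0136% of all regions were, and at an unadjusted p under 0.05 69 members (3.72%) were higher and 82 (4.42%) lower, against 6.96% and 2.59% of all regions. The median over members of the log2 difference between KO and C was -0.02, and 90% of members lay between -0.72 and 0.64. When members were chosen without 1 of the C BMPC libraries and the KO mean was set against that library alone, the median was 0.05, -0.01 and -0.03 for the 3 libraries in turn. In nB no member was called in either direction, as for all regions (0.0% each way), and edgeR and DESeq2 called none. At an unadjusted p under 0.05, 15 members (0.808%) were higher and 21 (1.13%) lower, against 0.630% and 1.04% of all regions. In GCB, 2 members were called higher and none lower, against 0.0317% and 0.0% of all regions, and none was called by edgeR or DESeq2. At an unadjusted p under 0.05, 283 members (15.2%) were higher and 45 (2.42%) lower, against 7.45% and 4.34% of all regions. The 2 members, named after their values were seen, lie at chr15:81857450-81858788 in Xrcc6, which encodes the DNA end-binding protein Ku70, and at chr8:126807693-126808388 in Galnt2. The Xrcc6 member held 6.60 and 7.49 RPPM in the C GCB libraries and 16.5, 19.1, 16.7 and 20.3 RPPM in the KO GCB libraries, a log2 difference of 1.25 ± 0.18 (SE, limma adjusted p = 0.00387). The Galnt2 member held 2.199 and 1.87 RPPM in C GCB and 6.61, 10.8, 7.45 and 9.09 RPPM in KO GCB, a log2 difference of 1.63 ± 0.24 (SE, limma adjusted p = 0.00387). At both members the KO GCB libraries lay above the C GCB libraries and below all 5 BMPC libraries. The median difference in GCB was 0.22, and C GCB values, unlike KO GCB values, were held low by the rule.

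Tests on whole reads made more calls in BMPC. edgeR's quasi-likelihood test on the recovered reads called 13 members higher (0.700%) and 44 lower (2.37%) in KO, where it called 1.45% of all regions higher and 0.361% lower. DESeq2 called 2 members higher and 8 lower, where it called 0.61% and 0.128% of all regions. The rule required high C BMPC values, which are the values KO was set against. The 5 members with the smallest difference in KO between BMPC and the other cell types were low members at 2010111I01Rik, Gpc1, Prss30, Abcc3 and Tspan15, with C BMPC means of 5.13 to 9.03 RPPM. This choice favored low KO BMPC values, and the rule favored high C values. KO below C was thus favored from both sides in these 5, and their tests are a description. The Abcc3 region (chr11:94205428-94205982), in an intron of a transporter gene, had 7.93, 10.6 and 8.56 RPPM in C BMPC and 3.52 and 2.61 RPPM in KO BMPC. The log2 difference in limma was -1.30 (SE 0.33, adjusted p = 0.062), and edgeR and DESeq2 gave -1.58 and -1.59 with adjusted p = 0.00031 and 0.0083. The 2010111I01Rik region had 6.37, 5.29 and 5.92 RPPM in C BMPC and 1.46 and 1.68 RPPM in KO BMPC. Both KO libraries were below all C libraries there, as in 432 members in all. The highest Slc1a4 member (chr11:20182306-20183462), near a neutral amino acid transporter gene, had 13.3, 25.2 and 19.8 RPPM in C BMPC and 6.92 and 7.28 RPPM in KO BMPC (limma adjusted p = 0.30, edgeR adjusted p = 0.00016, DESeq2 adjusted p = 0.37). In the other direction, S1pr1 and Ccnd2 had both KO libraries above all C libraries, as did 428 members in all. Such separation was not counted over all regions, so nothing on genotype is read from either count. Ccnd2, a cyclin gene, had 24.7, 23.9 and 19.9 RPPM in C BMPC and 36.8 and 33.2 RPPM in KO BMPC. For S1pr1 and Ccnd2 in turn, limma gave adjusted p = 0.62 and 0.52, edgeR adjusted p = 0.025 and 0.019, and DESeq2 adjusted p = 0.10 and 0.11. A difference between the genotype effects in BMPC and in the other cell types was tested as an interaction in limma, and the lowest adjusted p among members was 0.43 against nB and 0.11 against GCB.

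Markers of other cell types were read beside the members. By the study's methods the panels also held antibodies to CD11b, CD11c, Thy-1 and Ly6-G, which mark myeloid cells and T cells, to gate such cells out. Of the granulocyte list, 4 of 12 genes had a promoter region, and their summed level was 64.8 to 80.6 RPPM in BMPC libraries of either genotype, 31.7 to 43.2 RPPM in nB and 32.8 to 61.7 RPPM in GCB, while Mpo, Ltf, Camp and S100a8 had no promoter region in the table. Of the mast cell and basophil list, 2 of 8 genes had one, with summed levels of 5.92 to 15.9 RPPM in BMPC, 3.28 to 7.71 RPPM in GCB and 0.329 to 0.787 RPPM in nB, while Cpa3, Fcer1a, Ms4a2 and Mcpt8 had none. The T cell sum over 3 of 11 genes was 96.9 to 106 RPPM in BMPC, 117 to 131 RPPM in nB and 65.02 to 78.2 RPPM in GCB, so BMPC lay between the others, and Cd3d, Cd3e and Cd3g had no promoter region. Few distal regions lay at the genes of these other lists, and some of these were members, where members were 3.67% of all distal regions. The T cell list had 4 members of 16 distal regions (25%), at Cd4 and Cd28, and Cd28 also stands in the plasma cell receptor list. The mast cell and basophil list had 2 of 13 (15.4%), the granulocyte list 1 of 9 (11.1%), the monocyte and macrophage list 3 of 36 (8.33%) and the erythroid list 1 of 14 (7.14%). Below the share of all distal regions were the dendritic cell list with 1 of 33 (3.03%), the stromal and endothelial list with 1 of 35 (2.86%) and the NK cell list with 1 of 37 (2.70%). The megakaryocyte list had 0 of 11 and the B cell precursor list 0 of 15. The part of other cells in the member values was not tested.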

How the data were processed

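ATAC-seq libraries were made from sorted cells, and the values used are those deposited by the authors in 1 table of 66177 regions. Per the study's methods, reads were mapped to mm9 with Bowtie, accessible regions were determined with MACS2 and the union over samples was taken. The submitters' processing notes list Bowtie 1.1.1, Picard 1.127, MACS2 2.1.0.20140616 and edgeR 3.12.1, and the methods name other versions of Bowtie and MACS2. The deposited values are RPM, computed by the authors as reads in a region per 1e+06 reads in all regions (RPPM). Columns of the authors' own fold changes, p-values and FDRs were not used. One labelled KO BMPC library, of 17 labelled, has no column of values and was not analysed here.

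Values divided by the value of 1 read gave whole numbers in 100% of cells (tolerance 1e-06), and these recovered reads were used for edgeR 4.0.16 and DESeq2 1.42.0 as alternatives. The main test was limma 3.58.1 (R 4.3.3) on log2(RPPM + 1) with a variance trend, since the deposited unit is not counts, and fold changes on this scale understate the change of low regions. Benjamini-Hochberg adjustment was over all 66177 regions. The KO libraries were fitted alone for cell types, and all 6 groups together for genotype. The fits were tested on simulated data. Genes and annotations are those of the table, and sequences were read from NCBIM37, the same assembly as mm9, by region centre. No sequence was found for 247 distal regions, and none of these was a member. Regions were searched for 20 motif forms. p-values measure the spread between libraries, and floors cover counting error only.

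The members, gene lists and motif list were chosen with earlier results of these data known, and shares of members in a list are given with no test. Named were the 10 genes with most members, the 10 highest members, up to 4 genes per list by their highest member, the 5 members with the smallest KO difference, members that were past the limits for KO against C BMPC (none were), and regions next to each limit. Examples in the text are drawn from these. Alternatives were pseudocounts of 0.1 and 5, a filter at a mean of 1 RPPM, TMM and quantile scaling, no trend, an adjusted p of 0.05, other sets of libraries, each library left out and a replicate block for GCB pools. Some genes are not reported here.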

Additional observations from a re-analysis of the deposited data

Results flagged for a closer look

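In 57 values compared over the 4 KO GCB libraries, 5 had 1 library far from the other 3, where chance marks about 1 in 20. All are region values in the shallow GCB libraries. Xbp1 was at 6.99 RPPM (10 reads) in replicate 4, with 3.95 to 4.46 RPPM in the others. Ern1 was at 1.32 RPPM (3 reads) in replicate 3, with 5.09 to 5.59 RPPM in the others. Sdc1 was at 2.80 RPPM (4 reads) and Cxcr4 at 3.50 RPPM (5 reads) in replicate 4, with 5.51 to 5.73 and 9.91 to 10.8 RPPM in the others. Trp53inp1 was at 29.9 RPPM (47 reads) in replicate 2, a small gap from the 28.5 to 28.7 RPPM of the others. No interaction between genotype and cell type passed an adjusted p of 0.01 among members.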

How the results depend on the processing

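The count of members higher in KO BMPC than in KO nB (1774) lay between 1548 and 1849 under 10 alternatives and between 1456 and 1818 with each library left out. Against KO GCB (1597) these ranges were 1219 to 1733 and 1025 to 1663, and against both (1572) they were 1135 to 1731 and 971 to 1650. The lowest counts were without a KO BMPC library. The number of members (1856) was 4506 at a fold limit of 2, 590 at a fold limit of 8 and 1199 with 1 added before the ratio, and 1758 to 2101 with each C library left out.

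For KO against C BMPC, members higher and lower were 1 and 3 at an adjusted p of 0.05, 1 and 2 with a pseudocount of 5, 13 and 44 with edgeR, 2 and 8 with DESeq2, and 4 and 4 with only the 2 groups in the fit. For KO against C GCB, the 2 higher members became 12 at an adjusted p of 0.05, 4 with a pseudocount of 0.1 (1 lower), and 0 with a pseudocount of 5, no trend, edgeR, DESeq2 or only the 2 groups, and ranged from 1 to 4 with each library left out. Both genotypes have a pool named F2 and one named M1, with no statement that these share mice. The correlation of same-named deviations over 66177 regions was 0.04 and 0.06, and the replicate block gave 0 higher. In nB no count moved from 0.

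KO GCB above KO nB (481) became 739 at an adjusted p of 0.05, 55 with a pseudocount of 5, 139 with quantile normalization, 746 with edgeR, and 169 to 548 with each library left out. The median KO to C difference in BMPC (-0.02) was -0.0885 with TMM scaling, 0.0452 against held-out replicate 1, and -0.0079 to -0.0043 with a KO library left out. In 400 bases, CAGCTG was in 40.1% of members, GAAAC in 84.1%, GGAAGT in 24.1% and the octamer in 5.50%. At a fold limit of 8, GAAAC was in 70.7% and GGAAGT in 11.2%. The causes were not tested. Depth limits the GCB values most, since 3 reads stood for up to 3.30 RPPM there.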
